A study of Homo sapiens with 6 samples.

Results

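The protein disulfide isomerase (PDI) family is a set of endoplasmic reticulum (ER) proteins built around thioredoxin domains. The 10 genes described here, P4HB, PDIA3, PDIA4, PDIA5, PDIA6, TXNDC5, TXNDC11, ERP29, ERP44 and TMX1, were taken by symbol from a count table of 37993 gene symbols. All 10 reached 5 CPM, the count scaled to the library size after TMM normalization, in at least 1 library, as did 11413 genes in all. The table covers 6 libraries of HEK293T, a transformed human embryonic kidney line that takes up plasmids readily. One control group carried no transfection according to its genotype label. The other 5 groups overexpressed the ER stress sensor ATF6 by lipofection, as one of 5 alleles. They were wild type (WT) by label, a missense change (M67V), a nonsense change (N267star), and deletions of several exons named ex8-14del and ex2-3del. The series concerns ATF6 alleles linked to achromatopsia, an inherited cone disorder.

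Several features limit the groups as models. Each group was a single library, so differences between alleles have no replicate behind them and were not tested. The control's genotype label reads non-transfected, whereas the protocol for growth mentions empty vector, and in either reading every comparison with that library also shares its single control. If the control received no plasmid, the effect of transfection and that of an ATF6 allele cannot be told apart there. The authors' comparison sheet for WT is named by a number. Its log2 values equal those listed as WT in their index sheet for 15473 of 15473 genes, within 1e-06, and whether the construct was full length is not stated. Library totals lay between 16023926 and 16813314 counts. ATF6 itself stood at 85.1 CPM in the control, 713 CPM in N267star, 1148 CPM in WT, 1349 CPM in ex2-3del, 1493 CPM in M67V and 2410 CPM in ex8-14del. Plasmid and endogenous ATF6 reads cannot be told apart in these counts, and their part in the results was not tested. Of the line's markers, VIM stood between 548 and 611 CPM, NEFM between 133 and 154 CPM, NEFL between 51.3 and 57.8 CPM and PAX2 between 1.77 and 2.90 CPM. Markers of leukocytes, endothelium and hepatocytes (PTPRC, PECAM1 and ALB) stayed at or below 0.354 CPM, while COL1A1, listed as a fibroblast marker, stood between 27.3 and 35.2 CPM.

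PDI family enzymes form, break and rearrange disulfide bonds in proteins that enter the secretory pathway. They pass electrons to ER oxidases of the ERO1 type, and several also hold unfolded chains as chaperones. ER stress frees ATF6 to move to the Golgi, where proteases release a soluble transcription factor. That factor is known to act on promoters of ER chaperone genes through the ER stress response element, which pairs a CCAAT box with a CCACG sequence at a fixed distance.

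Among the catalytic members, PDIA4 and P4HB were far higher with WT and M67V than in the other 4 libraries. PDIA4 (ERp72), a multidomain disulfide isomerase of the ER lumen, was highest in M67V at 1770 CPM, with 1530 CPM in WT, 450 CPM in ex8-14del, N267star at 442 CPM, ex2-3del at 420 CPM and 393 CPM without transfection. The last 4 lay close together and the first 2 stood apart from them. The share of cells that took up plasmid and the level in each such cell cannot be told apart in bulk RNA. Relative to non-transfected cells PDIA4 was 3.89-fold higher in WT (log2 ratio 1.96, 1.92 to 2.0) and 4.51-fold higher in M67V (2.17, 2.13 to 2.21). Each bracket gives the log2 ratio or fold with its exact 95% limits, which describe counting error between 2 libraries and nothing more.

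P4HB encodes PDI itself, the founding enzyme of the family, which also serves as a subunit of collagen prolyl hydroxylase and of the microsomal triglyceride transfer protein. Its level was 1969 CPM in M67V, 1955 CPM in WT, 967 CPM in ex8-14del, 723 CPM for N267star, 701 CPM for ex2-3del and 666 CPM without transfection. WT and M67V were alike and high, and ex8-14del lay between them and the remaining 3. The ratio to non-transfected cells was 2.94-fold in WT (1.55, 1.52 to 1.59) and 2.96-fold in M67V (1.56, 1.53 to 1.6).

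PDIA6 (P5), an isomerase that associates with the chaperone BiP, was higher by less. It stood at 695 CPM in M67V, 655 CPM in WT, 443 CPM in ex2-3del, 439 CPM in ex8-14del, 414 CPM in N267star and 402 CPM without transfection. The N267star value is uncertain, because the overlapping gene ATP6V1C2 was high there. The ratio was 1.63-fold in WT (0.71, 0.66 to 0.75) and 1.73-fold in M67V (0.79, 0.75 to 0.83).

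Promoters are shown for PDIA4 and P4HB, the members with the largest ratios, and for PDIA6, whose window holds the full element. TXNDC11 is shown for its ATF6 core and HSPA5, the BiP gene, as the reference ATF6 target. Each window runs from 250 bases before to 50 bases after a transcription start, 5′ to 3′, from RefSeq on GRCh38.p14, which is not the build of the counts. All 5 lie on the minus strand, at chr7:149028441-149028740 (PDIA4), chr17:81860486-81860785 (P4HB), chr2:10812736-10813035 (PDIA6), chr16:11742808-11743107 (TXNDC11) and chr9:125241294-125241593 (HSPA5). Capitals mark the CCAAT box, the partner sequence CCACG and the ATF6 core TGACGTG, each on either strand. The core can share bases with the partner sequence read on the other strand.
PDIA4: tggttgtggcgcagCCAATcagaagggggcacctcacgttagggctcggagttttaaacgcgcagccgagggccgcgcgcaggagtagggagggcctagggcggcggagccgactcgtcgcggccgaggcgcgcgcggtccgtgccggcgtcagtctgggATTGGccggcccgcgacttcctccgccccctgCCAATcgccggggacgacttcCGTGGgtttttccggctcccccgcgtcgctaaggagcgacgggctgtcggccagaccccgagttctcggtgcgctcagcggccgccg
P4HB: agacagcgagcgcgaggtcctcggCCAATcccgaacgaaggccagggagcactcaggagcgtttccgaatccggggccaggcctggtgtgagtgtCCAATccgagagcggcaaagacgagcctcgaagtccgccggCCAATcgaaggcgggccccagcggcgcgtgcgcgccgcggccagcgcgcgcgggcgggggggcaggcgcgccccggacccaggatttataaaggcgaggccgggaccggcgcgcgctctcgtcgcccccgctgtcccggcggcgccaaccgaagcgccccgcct
PDIA6: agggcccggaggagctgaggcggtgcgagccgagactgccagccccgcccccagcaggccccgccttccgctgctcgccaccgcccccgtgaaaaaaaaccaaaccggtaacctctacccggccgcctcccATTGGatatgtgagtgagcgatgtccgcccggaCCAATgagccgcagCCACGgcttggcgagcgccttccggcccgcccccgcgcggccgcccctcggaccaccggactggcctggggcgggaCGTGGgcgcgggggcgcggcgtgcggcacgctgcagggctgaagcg
TXNDC11: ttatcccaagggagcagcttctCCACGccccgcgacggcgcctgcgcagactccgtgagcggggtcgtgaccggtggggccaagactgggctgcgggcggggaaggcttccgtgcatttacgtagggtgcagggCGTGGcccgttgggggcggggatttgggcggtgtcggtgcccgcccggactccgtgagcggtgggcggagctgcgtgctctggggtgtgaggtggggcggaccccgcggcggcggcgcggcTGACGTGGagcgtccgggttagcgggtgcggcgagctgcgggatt
HSPA5: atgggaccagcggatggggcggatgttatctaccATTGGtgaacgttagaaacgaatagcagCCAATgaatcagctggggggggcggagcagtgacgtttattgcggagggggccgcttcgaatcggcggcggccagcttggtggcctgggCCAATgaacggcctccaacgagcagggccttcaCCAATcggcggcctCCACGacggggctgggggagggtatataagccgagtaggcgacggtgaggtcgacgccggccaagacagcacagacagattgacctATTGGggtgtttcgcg

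The table of promoters held 9 of the 10 members, in 12 windows; PDIA3 is named only. The full element, a CCAAT box followed after 9 bases by CCACG on either strand, was found in 1 member window, that of PDIA6, and in HSPA5. It was present in 0.0769% of the 35116 promoter windows in the table. The related element, ATTGG followed after 1 base by the same partner, was in no member window and in 0.0541% of all windows. A CCAAT box was in 7 of the 12 member windows, from 6 members, and in 34.6% of all windows. The partner sequence was in 8 of the 12, from 7 members, and in 38.1% of all windows. Both counts include windows that hold the box and the partner together. P4HB had 3 CCAAT boxes and no partner sequence. The upstream PDIA4 window had 3 boxes and 1 partner sequence. The ATF6 core was in 2 of the 12 member windows, from TXNDC5 and TXNDC11, and in 1.97% of all windows. It lies before the transcription start in the TXNDC5 window, which is not shown, and after the start in that of TXNDC11. The member with the full element had a smaller ratio than PDIA4 and P4HB, in whose windows the exact letters do not occur. A match is a description of letters and no match says nothing of ATF6 binding elsewhere.

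**Figure D1:**
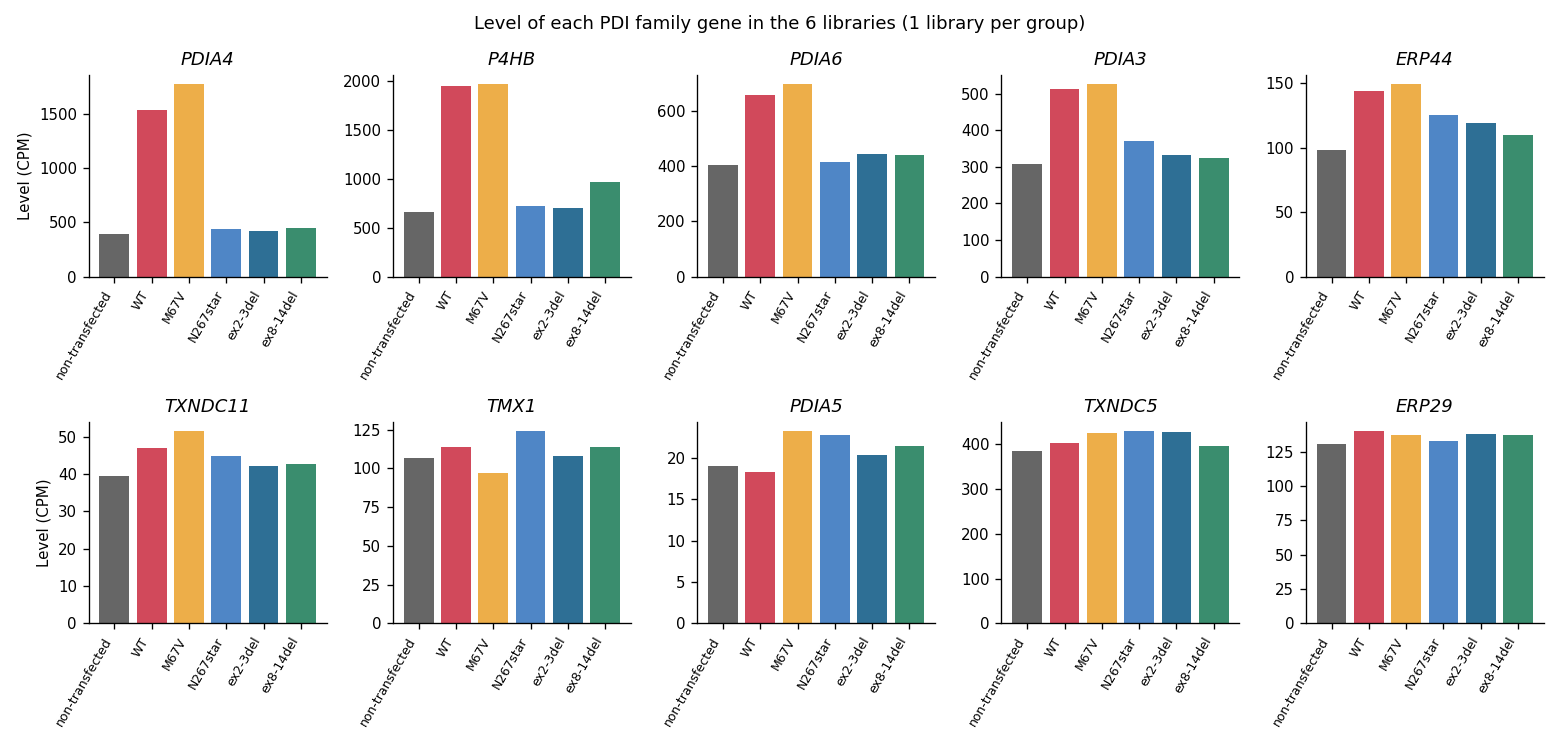
Level of each of the 10 genes in CPM (vertical axes, each from 0) in the 6 libraries, 1 bar per library, with genes ordered by their range. The WT and M67V bars stand above the others for PDIA4, P4HB, PDIA6, PDIA3 and ERP44, and by less for TXNDC11. P4HB in ex8-14del reaches 967 CPM, and ERP29 is nearly level.

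PDIA3 and ERP44, which act with partner proteins on particular clients, were also higher with both alleles. PDIA3 (ERp57) is the isomerase that calnexin and calreticulin bring to glycoproteins. It reached 525 CPM in M67V, 513 CPM in WT, 370 CPM with N267star, 331 CPM with ex2-3del, 325 CPM in ex8-14del and 308 CPM without transfection. N267star lay above the other 2 truncated or deleted alleles, though below WT and M67V. Ratios to the control were 1.67-fold in WT (0.74, 0.69 to 0.79), 1.71-fold in M67V (0.77, 0.72 to 0.82) and 1.2-fold in N267star (0.27, 0.21 to 0.32). The annotation names pseudogenes of PDIA3 (PDIA3P1 and PDIA3P2), with which reads may be shared, so its count is uncertain.

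ERP44 retains ERO1 oxidases and unassembled clients by carrying them back from the early Golgi. It measured 149 CPM in M67V, 144 CPM in WT, 125 CPM with N267star, 119 CPM with ex2-3del, 110 CPM in ex8-14del and 98.1 CPM without transfection. The control was the lowest of the 6. The ratio was 1.46-fold in WT (0.55, 0.46 to 0.64) and 1.52-fold in M67V (0.60, 0.51 to 0.70), which puts the 2 libraries on either side of a 1.5-fold criterion although they differed by 1.04-fold (0.979 to 1.1). With plain library totals in place of TMM the M67V ratio was 0.571, short of 1.5-fold. ERP44 was also the member with the highest ratio in N267star (0.34, 0.25 to 0.44) and in ex2-3del (0.28, 0.19 to 0.38), at the 98.8th and 97.8th percentiles of the genes tested.

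The other members spanned at most 1.31-fold between libraries. TXNDC11, a membrane thioredoxin protein that helps dual oxidases mature, stood at 51.5 CPM in M67V, 47.1 CPM in WT, 44.9 CPM in N267star, 42.7 CPM in ex8-14del, 42.2 CPM in ex2-3del and 39.4 CPM without transfection. Its log2 ratio to the control was 0.39 in M67V (0.24 to 0.54, the 96.9th percentile of genes tested) and 0.26 in WT (0.10 to 0.41, percentile 93.3). PDIA5, an isomerase reported to act on the disulfide bonds of ATF6 itself, stood at 23.2 CPM in M67V, 22.7 CPM with N267star, 21.4 CPM in ex8-14del, 20.3 CPM in ex2-3del, 19.0 CPM without transfection and 18.3 CPM in WT. At these low counts WT did not differ from the control beyond counting error (-0.06, -0.29 to 0.18). M67V (0.28, 0.06 to 0.51) and N267star (0.25, 0.03 to 0.47) were above the control, while the intervals of ex2-3del and ex8-14del spanned equality.

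TXNDC5 (ERp46), an efficient introducer of disulfides, ranged from 385 CPM without transfection up to 429 CPM in N267star. ERP29, whose thioredoxin fold lacks the catalytic cysteine pair and which also has a named pseudogene, ranged from 131 CPM without transfection up to 140 CPM in WT, and its largest ratio between any 2 libraries was 1.06-fold. TMX1, a transmembrane member, lay between 97.1 CPM in M67V and 124 CPM in N267star. It was the single member whose interval lay below equality against the control, in M67V (-0.13, -0.23 to -0.03), and it was 0.855 times the WT level there (0.798 to 0.916).

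A gene at 5 CPM or more in 1 of the libraries compared counts as tested here, which means compared, since no hypothesis test was made. It was past 1.5-fold if its interval also excluded equality. In WT 4 of the 10 members were past 1.5-fold higher than in non-transfected cells (PDIA4, P4HB, PDIA3 and PDIA6), where 1.4% of 11301 genes were. In M67V 5 members were, ERP44 being the addition, where 1.62% of 11304 genes were. None was past 1.5-fold lower, where 0.319% and 0.239% of genes were. Intervals lay above equality for 8 members in each, where 16.0% and 11.3% of genes did, and below it for 0 and 1, where 16.9% and 8.84% did. The median log2 ratio of the 10 members was 0.40 in WT and 0.50 in M67V, beside -0.007 and -0.003 over all genes tested. The members were proposed with results of these data known, so these counts and medians describe the list and are not a test of it. In the authors' deposited table, 5 members had an adjusted p under 0.05 in WT and 5 in M67V, with ERP44 at 0.000115 and 1.13e-05. Their table called 1.23% and 1.27% of genes higher and 0.0831% and 0.113% lower, and its p-values rest on 1 library a side.

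**Figure D2:**
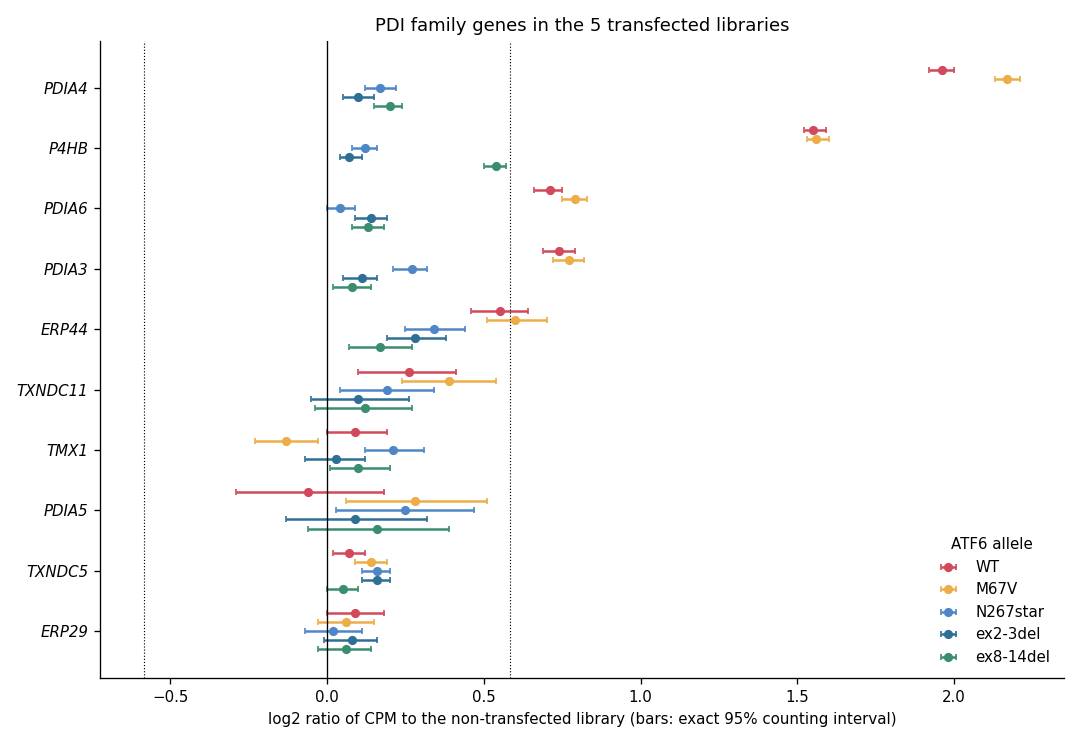
Log2 ratio of CPM to the non-transfected library (horizontal axis) for the 10 genes, in the 5 transfected libraries; bars are exact 95% counting intervals and dotted lines mark 1.5-fold. WT and M67V of PDIA4 and P4HB stand to the right of all others, P4HB in ex8-14del reaches 0.54, and TMX1 in M67V is the single interval below 0.

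The summed level of the family was highest in M67V and WT. Levels of different genes were compared as CPM per kilobase of their principal transcript in GENCODE 29, a scale that is approximate because the counts come from another annotation. On that scale the 10 genes summed to 2111 in M67V, 1996 in WT, 1091 in ex8-14del, 1011 in N267star, 993 in ex2-3del and 921 without transfection. The sum was 2.17-fold higher in WT and 2.29-fold higher in M67V than in the control. PDIA4 and P4HB, picked here as the members with the widest range, together made up 82.5% of the gain over the control in WT, 82.0% in M67V, 79.6% in ex8-14del, 43.1% in N267star and 31.8% in ex2-3del. In ex8-14del most of that part was P4HB, at 372 against 256 in the control, while PDIA4 stood at 155 against 135. The other 8 genes summed to 530 in the control, 718 in WT and 745 in M67V, or 1.35-fold and 1.41-fold.

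The makeup of the family's transcripts differed accordingly. P4HB held 27.8% of the summed level in non-transfected cells, 37.6% in WT and 35.8% in M67V, and PDIA4 held 14.7%, 26.4% and 28.9%. TXNDC5, whose own level hardly differed, went from 14.1% in the control to 6.81% in WT and 6.79% in M67V. In non-transfected cells the order of levels per kilobase was P4HB (256), PDIA6 (172), PDIA4 (135), TXNDC5 (130), PDIA3 (82.5), ERP29 (75.7), TMX1 (26.7), ERP44 (20.2), TXNDC11 (12.5) and PDIA5 (10.6). In WT PDIA4 stood second at 527, above PDIA6 at 280. The spread between cultures is unknown with 1 library a group, so whether neighbours such as PDIA4 and TXNDC5 truly differ in order was not tested.

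**Figure D3:**
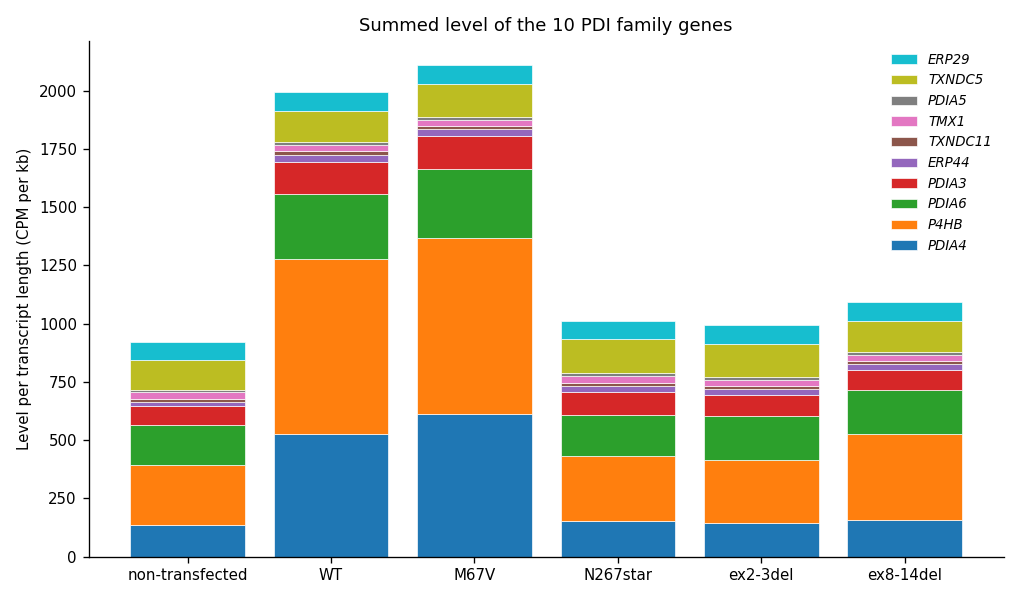
Summed level of the 10 genes in CPM per kilobase of transcript (vertical axis, from 0) in each of the 6 libraries, with 1 colour per gene. The WT and M67V columns reach 1996 and 2111 against 921 in the non-transfected library, and most of the added height is PDIA4 and P4HB.

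With the nonsense and deletion alleles the members lay near the control, mostly slightly above it. In N267star 0 of 10 members were past 1.5-fold in either direction, where 0.133% of genes were higher and 0.284% lower. In ex2-3del 0 of 10 were, where 0.168% were higher and 0.142% lower. In ex8-14del 0 of 10 were, where 0.355% were higher and 0.24% lower. At such shares a count of 0 among 10 genes is uninformative. The medians were 0.18, 0.10 and 0.12, beside 0.003, -0.002 and 0.003 over all genes tested. All 10 ratios were above 0 in each of these 3 libraries, and 8, 6 and 6 intervals lay above equality, where 15.6%, 10.1% and 12.5% of all genes tested did. None lay below it, where 15.4%, 11.4% and 11.8% did. The 3 comparisons share the 1 control library, so the 3 sets of ratios are not independent of each other. That library held the lowest level of 8 of the 10 members, and the share of all genes lowest there was not counted. In the authors' deposited table the adjusted p was under 0.05 for 0 members in N267star and ex2-3del and for 1 in ex8-14del, and it called 0.0477%, 0.0896% and 0.202% of genes higher and 0.0537%, 0.0717% and 0.0714% lower.

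That 1 member was P4HB. It was 1.45-fold higher in ex8-14del than in non-transfected cells (0.54, 0.50 to 0.57), a ratio that ranked 49th from the top of 11263 genes, and the authors' deposited table gives it 1.46-fold with an adjusted p of 1.22e-05. The next member in ex8-14del was PDIA4 at 0.20 (0.15 to 0.24). Neither pair of these alleles separated a member by 1.5-fold: 0.4% and 0.355% of genes were higher in ex8-14del than in N267star and ex2-3del, and 0.133% and 0.169% lower. P4HB in ex8-14del was 1.34-fold above N267star (0.42, 0.39 to 0.45) and 1.38-fold above ex2-3del (0.46, 0.43 to 0.50). PDIA4 differed from them by 1.02-fold (0.985 to 1.05) and 1.07-fold (1.04 to 1.11). P4HB overlaps no expressed gene in the annotation. HSPA5 was also higher in ex8-14del than in the control, 1.33-fold (0.41, 0.37 to 0.45, rank 106), and was 1.07-fold above N267star and 1.24-fold above ex2-3del. Against WT P4HB was 0.495 times (0.485 to 0.504) and HSPA5 0.204 times (0.2 to 0.208) the level.

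**Figure D4:**
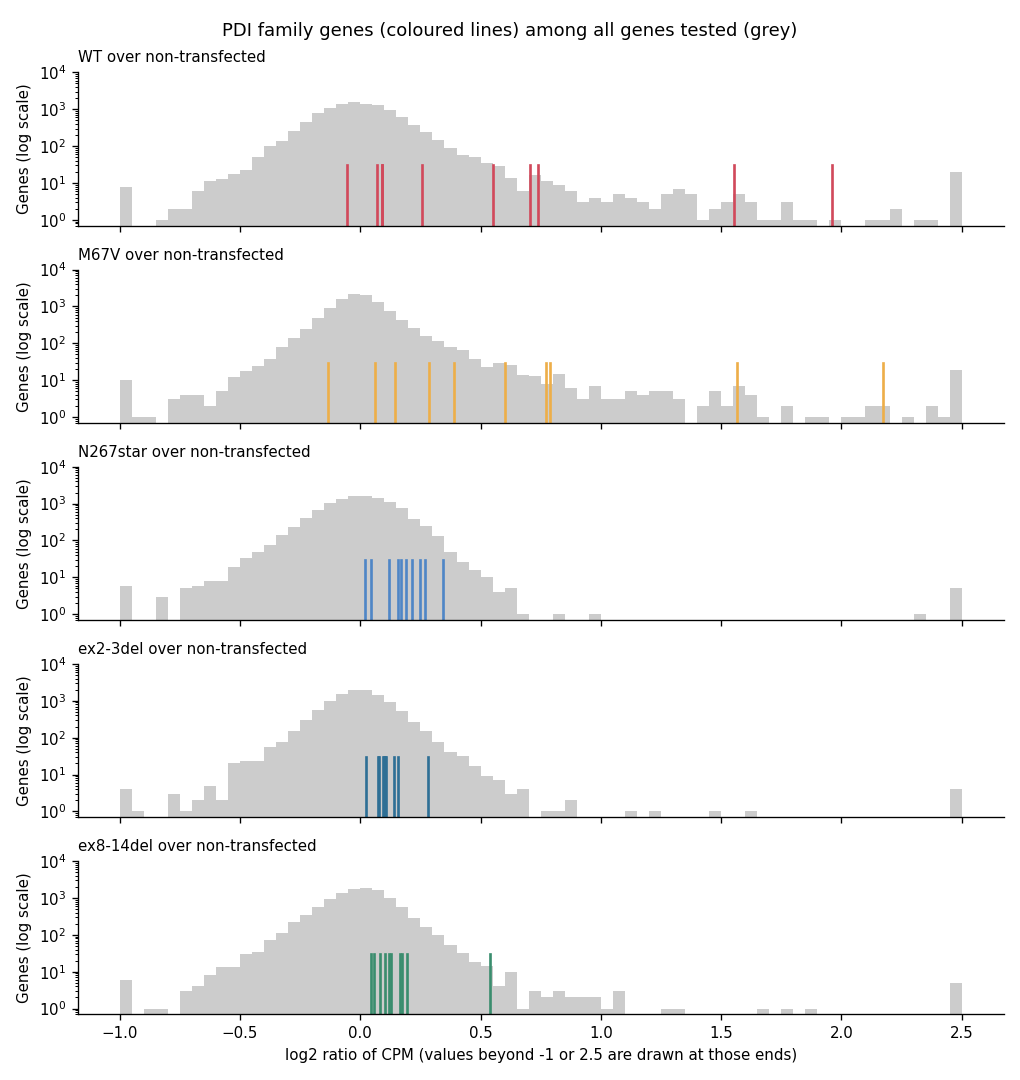
Distribution of log2 ratios to the non-transfected library over all genes tested (grey, gene number on a log axis) with the 10 family members as coloured lines, 1 panel per transfected library. Members spread from -0.06 to 1.96 in WT and from -0.13 to 2.17 in M67V, and lie between 0.02 and 0.54 with the 3 other alleles.

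PDIA6 overlaps a gene that stood apart in N267star. ATP6V1C2, a proton pump subunit gene on the opposite strand, stood at 70.2 CPM in N267star and between 8.3 and 16.0 CPM in the other 5 libraries. PDIA6 in N267star was nearest to the control of all PDIA6 ratios (0.04, -0.00 to 0.09). The strand setting of the counts is not stated. With both rows summed, an alternative chosen after seeing the data, the ratio of N267star to the control was 0.24 (0.19 to 0.29). The other 4 ratios to the control differed from those of PDIA6 alone by at most 0.01. Of the remaining members, PDIA3, PDIA5 and TXNDC11 overlap the expressed genes ELL3, SEC22A and SNN. The levels of these 3 lay between 6.53 and 8.25 CPM, 17.0 and 21.2 CPM, and 29.2 and 32.7 CPM.

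Compared directly with WT, the 3 alleles separated a few members from the rest. These 3 comparisons leave out the control but share the single WT library, so they are not independent of each other. Past 1.5-fold lower were 3 of 10 members in N267star (1.34% of all genes), 3 in ex2-3del (1.27%) and 3 in ex8-14del (1.14%). PDIA4 and P4HB were among the 3 each time, PDIA4 at -1.79, -1.86 and -1.77 and P4HB at -1.43, -1.48 and -1.02. The third was PDIA3 in ex2-3del (-0.63, -0.68 to -0.58) and ex8-14del (-0.66, -0.71 to -0.61). In N267star it was PDIA6 (-0.66, -0.70 to -0.62), and that call was lost when the ATP6V1C2 row was added (-0.46, -0.50 to -0.42). PDIA6 stood at -0.56 in ex2-3del and -0.58 in ex8-14del, just short of 1.5-fold. Medians over the 10 members were -0.14, -0.21 and -0.26. No member was past 1.5-fold higher than WT in these 3 libraries, where 0.142%, 0.212% and 0.266% of genes were.

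Between M67V and WT the members furthest apart were PDIA5, at 0.34 (0.12 to 0.57, the 98.4th percentile of genes tested), and TMX1, at -0.23 (-0.33 to -0.13, percentile 4.1). Intervals lay above equality for 4 members and below it for 1, where 13.6% and 11.0% of all genes tested did. None of the 10 was past 1.5-fold, where 0.177% of genes were higher and 0.168% lower, so that count says nothing particular of the family. P4HB (0.01, -0.01 to 0.03) and PDIA3 (0.03, -0.01 to 0.08) did not differ beyond counting error. PDIA4 was 1.16-fold higher in M67V (0.21, 0.19 to 0.24) and PDIA6 1.06-fold (0.09, 0.05 to 0.12), while HSPA5 was 0.929 times the WT level (0.918 to 0.940). The family median was 0.06 beside 0.008 over all genes. Whether such differences exceed the spread between cultures was not tested, since each allele had 1 library.

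Genes that resemble the members over the 6 libraries were sought among 11403 others, by the root mean square distance of centred log2 CPM. Nearest to P4HB were DNAJB11 (0.057), a BiP cochaperone, CDK2AP2 (0.057) and the low TRIM5 (0.069, between 6.03 and 18.5 CPM). CDK2AP2 went from 62.1 CPM in the control to 178 CPM in WT and 82.6 CPM in ex8-14del. Nearest to PDIA4 were CRELD1 (0.102), HSP90B1 (0.118), the ER chaperone GRP94, and the low SLC22A31 (0.153). PDIA6 lay nearest to PI4K2A (0.051), SLC1A4 (0.054) and PIM2 (0.054). PDIA3 lay nearest to the low CSPG4 (0.050, between 4.21 and 6.61 CPM), PJA2 (0.051) and DERL2 (0.053), a derlin of ER-associated degradation. Counting error is large for the low genes TRIM5, SLC22A31 and CSPG4, so their distances are uncertain. Within the family PDIA3 and PDIA6 were 0.092 apart.

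Some partners of the members were also higher with WT and M67V. Of 15 partner genes 10 were tested in WT and 2 were past 1.5-fold higher, where 1.4% of all genes were. The 2 were the lectin chaperones CALR (1.15, 1.12 to 1.18) and CANX (0.60, 0.58 to 0.63), which work with PDIA3. In M67V CALR alone was past 1.5-fold higher, at 1.07 (1.04 to 1.10), where 1.62% of all genes were. CANX stood at 0.56 (0.53 to 0.59) in M67V. EDEM1, a mannosidase-like factor of degradation, stood at 0.47 (0.35 to 0.60) in WT. In N267star, ex2-3del and ex8-14del 0 of the partners were past 1.5-fold. Of all genes 0.133%, 0.168% and 0.355% were higher there and 0.284%, 0.142% and 0.24% lower, so a count of 0 is uninformative. The list medians were 0.15, 0.07 and 0.07 in those libraries, beside 0.26 with WT and 0.21 with M67V. P4HA1 and P4HA2, which encode catalytic subunits that join P4HB in collagen prolyl hydroxylase, were named after their values were seen. P4HA1 lay between 50.3 and 56.5 CPM and P4HA2 between 19.8 and 22.7 CPM, over libraries in which P4HB spanned 2.96-fold.

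Some enzymes that supply oxidising power were also higher with WT and M67V. Of 12 genes of ER disulfide oxidation and peroxide handling 11 were tested. In WT 1 was past 1.5-fold higher, where 1.4% of all genes were. That 1 was SELK, a selenoprotein of the ER membrane (0.77, 0.60 to 0.94). The oxidases ERO1A and ERO1B, which reoxidise PDI, stood at 0.44 (0.35 to 0.54) and 0.53 (0.37 to 0.69) in WT. In M67V these oxidases stood at 0.24 (0.14 to 0.34) and 0.49 (0.34 to 0.65), and SELK stood at 0.58. There 0 of the list were past 1.5-fold, where 1.62% of all genes were higher and 0.239% lower, so that count is uninformative. Medians were 0.04 in WT and 0.08 in M67V. ERO1A was also above the control in N267star (0.15, 0.05 to 0.25) and ex2-3del (0.17, 0.07 to 0.27). ERO1B stood at 0.16 (-0.0 to 0.33) in N267star and 0.10 (-0.07 to 0.27) in ex2-3del. In ex8-14del ERO1A (0.04, -0.06 to 0.14) and ERO1B (-0.08, -0.25 to 0.09) did not differ from the control beyond counting error.

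Other genes of the same protein class are given for comparison. Of 14 further ER thioredoxin-domain genes 13 matched a row and 8 were tested, and 0 were past 1.5-fold in any of the 5 comparisons with the control. At the shares of all genes given above (1.4% in WT), a count of 0 among 8 genes is uninformative. Medians were 0.07 in WT and 0.06 in M67V. DNAJC10 (ERdj5), a disulfide reductase, was the highest in WT at 0.28 (0.20 to 0.35), followed by TXNDC16 at 0.18 (0.03 to 0.34) and TXNDC12 at 0.16 (0.06 to 0.26). DNAJC10 and TXNDC12 also had intervals above equality in M67V, N267star and ex2-3del, DNAJC10 at 0.18, 0.16 and 0.21 and TXNDC12 at 0.13, 0.15 and 0.18. In ex8-14del TXNDC12 was above equality too (0.11, 0.01 to 0.22), while DNAJC10 was not (0.01, -0.06 to 0.09). All these ratios share the single control library. Of 13 genes of thioredoxin and glutathione supply outside the ER, 13 were tested and 0 were past 1.5-fold in any of the 5 comparisons with the control. At the same shares of all genes this count of 0 is uninformative too. The medians of these 13 genes were 0.02 in WT and -0.07 in M67V. GCLC, the catalytic subunit of glutamate-cysteine ligase, was the highest in WT at 0.35 (0.22 to 0.49). GCLM followed at 0.20 (0.08 to 0.32) and GLRX at 0.19 (-0.08 to 0.47).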

How the data were processed

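RNA was extracted with a Qiagen RNeasy kit and libraries were built at BGI, per the labels' protocols. The authors deposited each library's estimated count per gene symbol. The build GRCh37.p13 and DESeq are named, per the submitters' processing notes. The sources used here name no aligner, counter or strand setting. The placeholder 0.028 was set to 0 and counts were rounded. The 28 rows whose names had become dates were left out (between 0.215% and 0.231% of counts), and 94 rows sharing a symbol were summed. The 6 columns of a second count table went unused, since 1 carries a number matching no label. Each allele's comparison sheet gives the authors' fold (a ratio) and adjusted p-value, per the file headers.

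Effective library sizes used TMM factors (edgeR 4.0.16, R 4.3.3; DESeq2 1.42.0 for an alternative). Log2 ratios used a prior count of 2 and exact conditional binomial (Clopper-Pearson) intervals. PCR reads are not independent molecules, so intervals cover counting error only. No test was possible with 1 library per group. A floor of 3 counts was between 0.177 and 0.189 CPM. The steps were tested on simulated data. One marker gene of another cell type is not reported here. Members and lists were chosen with earlier results of these data known. Named genes were the 10 members, up to 3 tested genes per related list with the largest absolute WT ratio, and the 3 nearest profiles of the 4 members with the widest range. Overlaps and transcript lengths came from GENCODE 29 (GRCh38), and no coordinates of the counts are given. Intervals came from scipy 1.17.1 in Python 3.11.15 (pandas 2.3.3, numpy 2.4.6) and plots from matplotlib 3.10.9.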

Additional observations from a re-analysis of the deposited data

How the results depend on the processing

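Of 110 member ratios over 11 library pairs, 1 changed sign under DESeq2 size factors, plain library totals, a prior count of 0.5 or unrounded counts: ERP29 in ex2-3del over WT, at -0.013 and at 0.014 with library totals. The largest change was 0.033, and 1 ratio left its interval (P4HB in M67V over the control, 1.532 with library totals). The read-through row of TXNDC5 held 0 counts and changed nothing. The number of members past 1.5-fold was as reported in each pair under those 4 alternatives, except 4 instead of 5 in M67V over the control with library totals. With a 2-fold call 2 members passed in WT and 2 in M67V against the control, PDIA4 and P4HB. Over all genes and both directions, that call left, over the control, 91 genes for M67V, 89 for WT, 20 for ex8-14del, 12 for ex2-3del and 11 for N267star. It left 15, 80, 70 and 65 for M67V, N267star, ex2-3del and ex8-14del over WT, and 20 and 16 for ex8-14del over N267star and over ex2-3del. Without a filter on low values the same 11 counts, in that order, were 409, 414, 242, 208, 208, 197, 390, 379, 376, 233 and 224, against 210, 194, 67, 35, 47, 39, 167, 167, 159, 60 and 59 with the filter; more genes are counted because the filter removes low genes. Adding ATP6V1C2 to PDIA6, chosen after seeing the data, moved 3 ratios outside their intervals, all involving N267star, and turned ex8-14del over N267star from 0.08 to -0.11. No paired analysis was possible because each group is 1 library. PDIA5, near 20 CPM, has the widest intervals, and depth limits it most.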
